A study of Mus musculus with 6 samples.

Results

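The genes described here encode carriers of amino acids, small peptides and chemically related compounds, chosen by name from 8 families of solute carriers (Slc1a, Slc3a, Slc6a, Slc7a, Slc15a, Slc36a, Slc38a and Slc43a). A gene belonged when its symbol was one of these family names followed by a number only, which took 66 of the 27179 listed genes. The rule uses names alone. Slc6a20a and Slc6a20b carry a letter after the number and fall outside the rule. RNA was sequenced from organoids of wild-type (WT) mouse small intestine, epithelial cultures grown in Matrigel with Intesticult medium. The 3 T3 libraries are from organoids that received T3, the active thyroid hormone, at 1e-07 M over 17 h, and the 3 vehicle libraries from organoids that received its vehicle as long. The age, sex and strain of the mice are not given in the sources used here, and neither is whether each library stands for its own culture or animal. The p-values therefore rest on how far these 6 libraries vary among themselves, a variation that may be technical.

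Dietary protein reaches the absorptive cell, the enterocyte, as free amino acids and as peptides of a few residues. Carriers on the brush border, the membrane that faces the gut lumen, take them up with sodium, with protons or by exchange. Other carriers on the basolateral membrane pass them to the blood or exchange them with it. Several carriers work as pairs of proteins, a light chain that moves the substrate and a heavy chain that brings the light chain to the membrane. A further set supplies each cell with amino acids for its own growth, empties lysosomes, or moves taurine, creatine, glycine and neurotransmitters.

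The deposited values are whole numbers, the reads of each gene after scaling and rounding by the authors, called normalized reads here. Column totals ran from 28197080 to 28611883 in the vehicle libraries and from 29510422 to 29974091 in the T3 libraries. Of the T3 libraries, replicate 3 stood apart, with a mean chi-square per gene of 13.9 and 14.9 against its 2 replicates, which differed from each other by 5.07. Vehicle replicate 1 stood apart less, at 8.13 and 9.92 against 4.89 between vehicle replicates 2 and 3. Epithelial markers were high in every library. Of 12 markers of other cell types only 4 passed the filter on low values (Itgam, Pdgfrb, Tubb3 and Pecam1), and Cdh5 and Hbb-bs were listed at 0 throughout. The list summed to between 64.9 and 81.7 normalized reads per kb of exon with vehicle and between 111 and 115 with T3. Its 1 call was Itgam, an integrin of myeloid cells, which rose from 97.3 ± 15.2 to 349 ± 7.55. Pdgfrb, Tubb3 and Pecam1 leaned lower with T3 (log2 -0.24, -0.35 and -0.59) and were not called. The leukocyte markers Ptprc and Cd3e did not exceed 3 and 2 in any library, and the source of the Itgam reads was not tested. Markers of maturation moved with T3, where 24.0% of all genes tested below were called higher and 20.8% lower. All 6 crypt stem cell markers fell, with a summed level of 24998 to 29030 normalized reads per kb of exon with vehicle and 9197 to 10480 with T3. Of 10 enterocyte markers 7 rose and 1 fell, and their sum went from between 58959 and 65068 to between 77964 and 100168. The part of this shift in the results below was not tested, and in bulk RNA more cells of a type and more RNA per cell cannot be told apart.

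T3 raised 12 and lowered 4 of the 38 transporter genes that passed the filter on low values. That is 42.1% of those tested, beside 44.8% of all 13052 tested genes. Calls are genes with an adjusted p under 0.05 by limma on log2(normalized reads + 1), adjusted over all tested genes, and fold changes below are on that scale. Of all tested genes 24.0% were called higher and 20.8% lower. The total share of members called was thus close to the background. The split between rises and falls depended on the scaling. With upper-quartile scaling or equal column totals 11 members were called higher and 9 lower, so that 55.0% of the members' calls were rises in place of 75.0%. Over all tested genes that share moved as well, from 53.6% to 40.4% and 38.7% under these scalings, in that order. The median log2 fold change of the 38 members was -0.00092, beside -0.0089 for all tested genes. The groups did not overlap at 19 members, T3 above vehicle at 12 and below at 7, while 54.9% of all tested genes had no overlap. Changes of at least 1.5-fold were 5 rises (Slc7a15, Slc43a2, Slc7a9, Slc6a8 and Slc7a8) and 1 fall (Slc7a2), where 7.19% of all tested genes rose and 5.43% fell by as much. Slc7a8 passed this size narrowly, at log2 0.61. It fell short of it with upper-quartile scaling (0.55), equal column totals (0.54), without T3 replicate 3 (0.55) and without vehicle replicate 2 (0.58).

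**Figure D1:**
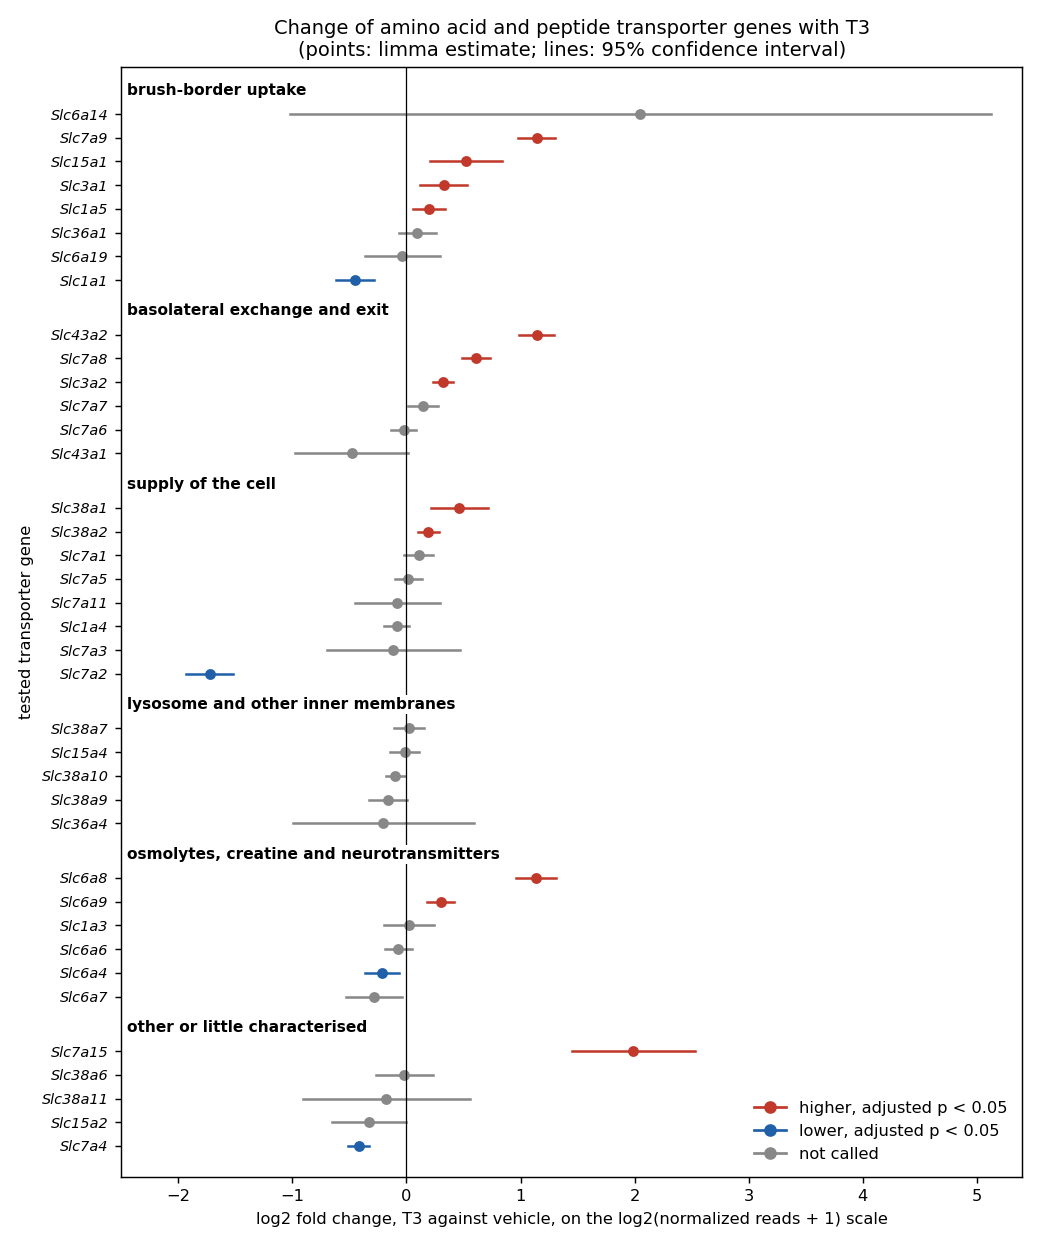
Log2 fold change of T3 against vehicle for the 38 tested transporter genes, on the log2(normalized reads + 1) scale, with 95% confidence intervals, ordered within 6 role groups. The calls higher with T3 (12, red) are 4 brush-border, 3 basolateral, 2 supply, 2 osmolyte and 1 other gene, where 24.0% of all tested genes were called higher. The 5 lysosomal genes are all uncalled, where 44.8% of all tested genes were called in either direction. Slc7a2 lies farthest to the left.

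The other 28 members did not pass the filter, which asked for at least 10 normalized reads in at least 3 libraries, and none exceeded 5 in any library. They are largely carriers known from brain, kidney or liver. Among them, 11 were listed at 0 in all 6 libraries, including Slc1a6, Slc1a7, Slc6a2, Slc6a16, Slc7a10, Slc7a12, Slc7a13, Slc15a3, Slc36a2 and Slc36a3. The remaining 17 (Slc1a2, Slc6a3, Slc6a5, Slc6a11, Slc6a12, Slc6a13, Slc6a15, Slc6a17, Slc6a18, Slc6a21, Slc7a14, Slc15a5, Slc38a3, Slc38a4, Slc38a5, Slc38a8 and Slc43a3) had between 1 and 5 in their highest library.

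Silent and expressed members lay side by side in the genome (mm10, GRCm38). Slc6a18, a kidney carrier of neutral amino acids, lies 3.13 kb from Slc6a19 on chromosome 13, and was listed at 0 in 5 libraries and at 1 in the sixth, while Slc6a19 averaged 820 with vehicle. Slc36a1 averaged 793 with vehicle, and its neighbours on chromosome 11, Slc36a2 and Slc36a3, were listed at 0 throughout. On chromosome 15 Slc38a1 and Slc38a2, 44.5 kb apart on the same strand, were both among the more abundant members and both rose, while Slc38a4, a further 295 kb along, averaged 0.667 with vehicle. On chromosome 14 Slc7a7 and Slc7a8 lie on the same strand 305 kb apart, and only the call of Slc7a8 passed the test.

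Among brush-border carriers, Slc7a9, Slc15a1, Slc3a1 and Slc1a5 rose and Slc1a1 fell, out of 8 tested. That is 62.5% called, beside 44.8% of all tested genes. Slc7a9 encodes the light chain, and Slc3a1 the heavy chain, of the exchanger that brings cystine and cationic amino acids into the enterocyte, and loss of either causes cystinuria. Slc7a9 (gene ID 30962, chromosome 7, 35449092 to 35466034, plus strand, 14 exons) stood at 585, 657 and 656 normalized reads in vehicle replicates 1 to 3 and at 1528, 1357 and 1306 in the T3 replicates. Every T3 library was far above every vehicle library. The rise was 2.20-fold (log2 1.14 ± 0.07 SE, limma adjusted p = 1.77e-06). Slc3a1 (gene ID 20532, chromosome 17, 85028347 to 85064241, plus strand, 10 exons) stood at 2657, 2749 and 2809 with vehicle and at 3760, 3746 and 2868 with T3. T3 replicate 3 lay just above the highest vehicle library and far below the other two T3 libraries. The rise of 1.25-fold (adjusted p = 0.0164) was not called without T3 replicate 1 (adjusted p = 0.0742), without T3 replicate 2 (0.0601), with robust variances (0.0521) or with no mean-variance trend (0.0704). Exons of Slc3a1 share 606 bases, 26.3% of its exon length, with Prepl on the opposite strand, which averaged 1914 and 1977, and although the libraries were directional, how strand was used in counting is unknown.

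The ratio of light to heavy chain within a library does not depend on the scaling between libraries. Per kb of exon, the level of Slc7a9 was 0.256, 0.278 and 0.271 of that of Slc3a1 in vehicle replicates 1 to 3 and 0.472, 0.421 and 0.529 in the T3 replicates. All T3 ratios lay above all vehicle ratios, in a design too small for the test to pass. The log2 ratio was higher by 0.82 with T3 (exact permutation test over libraries, two-sided p = 0.1, the smallest this design allows, adjusted p = 0.15 over the 3 ratios tested), and by 0.73 to 0.90 when single libraries were left out.

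The sequences before the start sites of this pair, whose proteins work together, and of Slc43a2, a basolateral gene called higher, are shown for comparison. They are the 250 bases upstream of the RefSeq start that matches the 5′ end of the deposited gene model (GRCm38.p6), printed 5′ to 3′ on the gene's strand, with motif matches in capitals. Slc7a9 is at chr7:35448842-35449091, Slc3a1 at chr17:85028097-85028346 and Slc43a2 at chr11:75531444-75531693, all on the plus strand.
Slc7a9: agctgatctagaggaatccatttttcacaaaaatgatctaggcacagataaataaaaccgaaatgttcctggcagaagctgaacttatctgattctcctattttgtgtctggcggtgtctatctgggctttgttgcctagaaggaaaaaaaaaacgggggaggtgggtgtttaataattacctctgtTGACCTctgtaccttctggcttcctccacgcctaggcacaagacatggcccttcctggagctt
Slc3a1: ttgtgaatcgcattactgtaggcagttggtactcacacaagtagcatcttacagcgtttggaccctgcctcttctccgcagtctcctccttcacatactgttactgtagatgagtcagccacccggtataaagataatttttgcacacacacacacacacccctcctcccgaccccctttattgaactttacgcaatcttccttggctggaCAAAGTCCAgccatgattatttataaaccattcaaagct
Slc43a2: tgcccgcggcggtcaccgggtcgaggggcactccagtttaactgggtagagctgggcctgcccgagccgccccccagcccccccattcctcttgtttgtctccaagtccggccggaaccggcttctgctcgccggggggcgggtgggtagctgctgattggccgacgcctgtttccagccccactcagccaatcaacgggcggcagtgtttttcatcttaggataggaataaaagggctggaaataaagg
The capitals mark a half-site of the thyroid hormone receptor (AGGTCA, read as TGACCT on the other strand) that starts 63 bases before the start of Slc7a9, and a match to the HNF4A motif CAAAGTCCA that starts 39 bases before the start of Slc3a1. Slc43a2 had no match to any motif searched. Its window held 17 CG dinucleotides, against 4 for Slc7a9, 6 for Slc3a1 and a median of 6 over all 32851 promoters in the RefSeq table. Both strands were searched in the 21 tested members with a start matched in this way. The half-site was found in 3 of the 21 (Slc7a9, Slc15a4 and Slc36a1) and in 14.0% of all promoters, so its presence is common. The direct repeat of AGGTCA spaced by 4 bases, which contains the half-site, was in 0 of the 21 and in 0.0152% of all promoters. The core of the amino acid response element, TGATGNAA, was in 2 (Slc7a7 and Slc7a11, both uncalled) and in 3.45% of all, the HNF4A motif in 1 and 0.384%, and the HNF1 motif (GTTAAT, any base, ATTAAC) in 0 and 0.00913%. Slc6a8, Slc7a2 and Slc7a15 had no entry matched in this way.

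Slc15a1 encodes PEPT1, the proton-coupled carrier that takes up peptides of 2 or 3 residues. It stood at 181, 228 and 216 with vehicle and at 316, 242 and 344 with T3. The groups did not overlap, but T3 replicate 2 lay close to the vehicle libraries. The rise was 1.43-fold (adjusted p = 0.0136), and without T3 replicate 1 it was not called (adjusted p = 0.0567). Slc1a1, the carrier of glutamate and aspartate that also moves cysteine, stood at 696, 772 and 686 with vehicle and at 545, 550 and 484 with T3. It was lower in every T3 library and fell 1.36-fold (log2 -0.45 ± 0.07 SE, adjusted p = 0.000939).

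Slc1a5, an exchanger of glutamine and other neutral amino acids, had the highest level per kb of exon among all members, 2491 ± 199 with vehicle and 2856 ± 175 with T3 (normalized reads per kb, SD, n = 3). Its libraries stood at 6237, 7181 and 7196 normalized reads with vehicle and at 7733, 8414 and 7480 with T3. T3 was higher throughout, by a narrow margin. The rise of 1.15-fold (adjusted p = 0.0302) was lost in 7 of 16 alternative settings, among them upper-quartile scaling (0.112) and leaving out vehicle replicate 1 (0.0773), T3 replicate 1 (0.0675) or T3 replicate 2 (0.111).

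Slc6a19 encodes the main sodium-dependent carrier of neutral amino acids, and its loss causes Hartnup disorder. Its vehicle libraries were tight, at 819, 805 and 837, and its T3 libraries spread on either side of them, at 989, 603 and 858. The log2 fold change was -0.04 with a 95% confidence interval from -0.36 to 0.29 (adjusted p = 0.863), so a rise or a fall within that interval remained possible. Slc36a1, a proton-coupled carrier of small amino acids found on the brush border and on lysosomes, was at 793 ± 75.4 and 845 ± 19.4 (interval of the log2 fold change -0.07 to 0.26). Slc6a14, a broad carrier of neutral and cationic amino acids, did not follow the groups. It stood at 0, 56 and 1 in vehicle replicates 1 to 3 and at 35, 4 and 44 in the T3 replicates, so that libraries at or near 0 and libraries above 30 occurred in both groups.

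**Figure D2:**
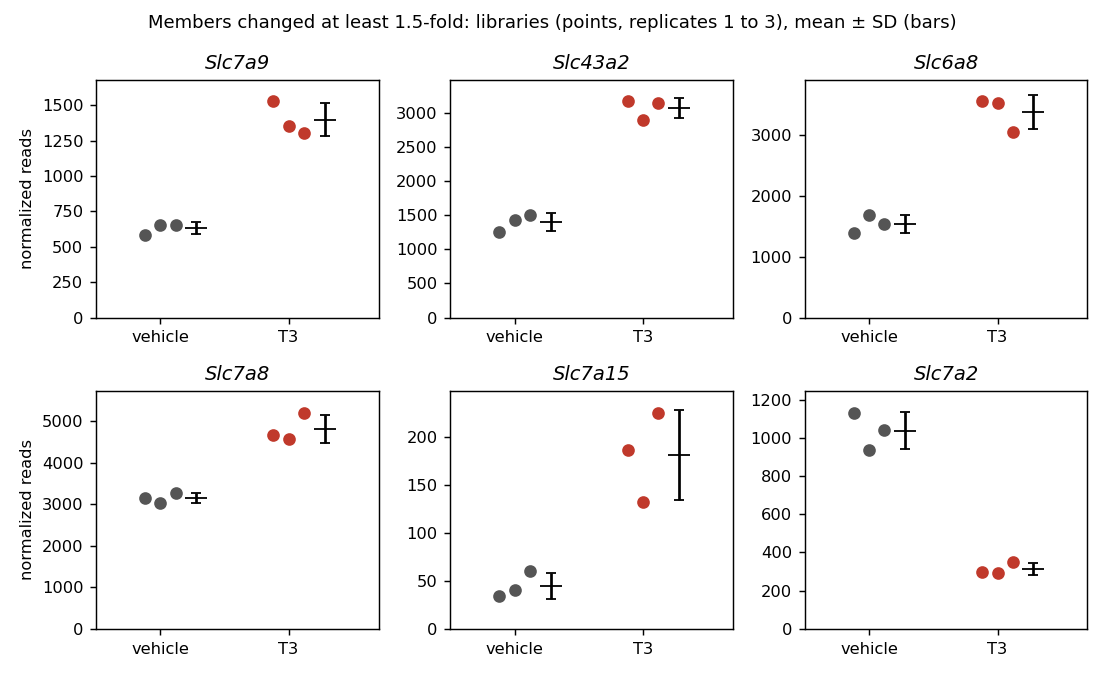
Normalized reads of the 6 members changed at least 1.5-fold, in each vehicle library (grey) and each T3 library (red), with the mean ± SD (n = 3) beside the points and every axis starting at 0. Slc7a9, Slc43a2 and Slc6a8 rose by 2.20 to 2.21-fold, and all T3 libraries of Slc7a2 (292 to 350) lie far below its vehicle libraries (938 to 1131).

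On the basolateral side Slc43a2, Slc7a8 and Slc3a2 rose and none of 6 tested genes was called lower. These 3 calls of 6 are close to the 44.8% of all tested genes called in either direction. A group of 6 is too small to set its lack of falls apart from the 20.8% of all tested genes called lower. Slc43a2 encodes LAT4, a facilitator that lets branched-chain amino acids, methionine and phenylalanine leave the cell down their gradient (gene ID 215113, chromosome 11, 75531694 to 75577572, plus strand, 15 exons). It stood at 1250, 1428 and 1511 with vehicle and at 3171, 2900 and 3153 with T3. The lowest T3 library was far above the highest vehicle library. The rise was 2.21-fold (log2 1.14 ± 0.07 SE, adjusted p = 1.30e-06). Its relative Slc43a1, or LAT3, was scarce, at 28, 35 and 31 with vehicle and 26, 23 and 18 with T3. Every T3 library was lower, and the difference (log2 -0.48, adjusted p = 0.105) was called only with no mean-variance trend (0.0491).

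Slc7a8 encodes LAT2, a light chain that exchanges neutral amino acids across the basolateral membrane and also carries iodothyronines (gene ID 50934, chromosome 14, 54722215 to 54781886, minus strand, 11 exons). It stood at 3141, 3028 and 3272 with vehicle and at 4663, 4560 and 5202 with T3. All T3 libraries were higher, and the rise was 1.53-fold (log2 0.61 ± 0.05 SE, adjusted p = 1.85e-05). Slc3a2, the heavy chain that LAT2 and several other light chains share (gene ID 17254, chromosome 19, 8706882 to 8723369, minus strand, 10 exons), stood at 4758, 4911 and 5102 and at 6062, 6085 and 6294. The groups were well apart for a rise of 1.25-fold (log2 0.32 ± 0.04 SE, adjusted p = 0.000148).

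Slc7a7, Slc7a6 and Slc7a5, further partners of Slc3a2, did not pass the test. Slc7a7 is the light chain that exports cationic amino acids, and its loss causes lysinuric protein intolerance. It stood at 1925, 1873 and 2088 with vehicle and at 2311, 2056 and 2133 with T3, with some overlap (log2 0.14, interval 0.01 to 0.27, adjusted p = 0.0699, but 0.0339 without vehicle replicate 3). Its exons share 228 bases with Oxa1l on the opposite strand. Slc7a6, a close relative of the same exchange type, was at 1428 ± 48.5 and 1405 ± 62.6 (interval -0.14 to 0.09). Slc7a5, or LAT1, the light chain of growing cells, was at 3483 ± 118 and 3523 ± 234 (interval -0.10 to 0.13). Whether the change of Slc7a8 differed from that of Slc7a5 was not tested. Per kb of exon the ratio of Slc7a7 to Slc3a2 was 0.478, 0.450 and 0.483 with vehicle and 0.450, 0.399 and 0.400 with T3. The log2 ratio differed by -0.18 with T3 (exact permutation test, two-sided p = 0.1, the smallest possible, adjusted p = 0.15). The lowest vehicle and the highest T3 ratio nearly met. With single libraries left out the difference ran from -0.23 to -0.15. The permutation p was then 0.1 without T3 replicate 1 and 0.2 in some of the other cases, T3 replicate 2 among them.

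**Figure D3:**
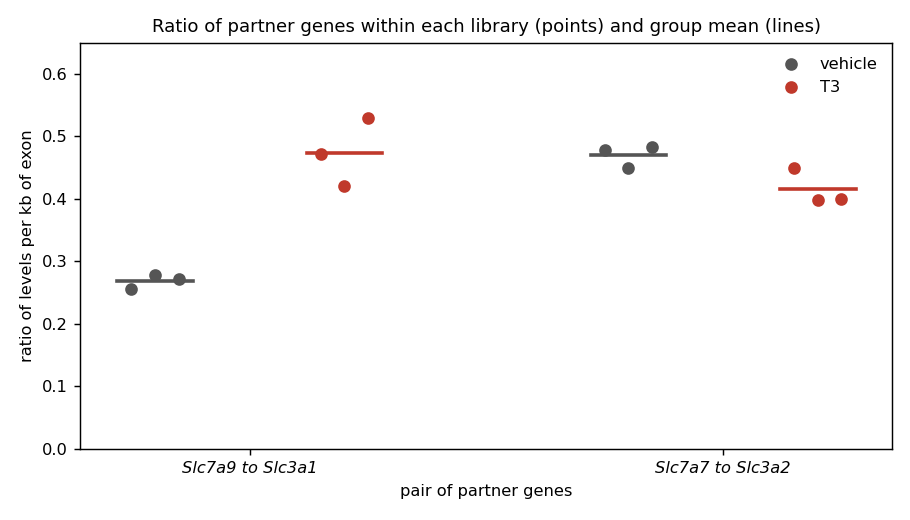
Ratio of levels per kb of exon for 2 pairs of partner genes in each vehicle library (grey) and T3 library (red), with lines at the group means. Slc7a9 to Slc3a1 went from 0.256 to 0.278 with vehicle to 0.421 to 0.529 with T3, while the groups nearly met for Slc7a7 to Slc3a2 (0.450 in the lowest vehicle and the highest T3 library).

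Genes that supply the cell's own needs held both the strongest fall and several of the highest levels. Slc7a2 encodes a carrier of arginine and other cationic amino acids (gene ID 11988, chromosome 8, 40862367 to 40922070, plus strand, 13 exons). It stood at 1131, 938 and 1039 with vehicle and at 297, 292 and 350 with T3. Each T3 library was below every vehicle library by a wide margin, and the fall was 3.30-fold (log2 -1.72 ± 0.09 SE, adjusted p = 5.54e-07). Its relatives with the same type of substrate did not pass the test. Slc7a1, the widely expressed carrier of cationic amino acids, stood at 9064, 8153 and 8728 and at 8986, 8973 and 9974 (interval -0.02 to 0.23). Slc7a3 was at 85.0 ± 16.8 and 80.7 ± 26.6. Per kb of exon, Slc7a1 exceeded Slc7a2 in both groups, at 1205 ± 64.2 and 1297 ± 80.0 against 132 ± 12.3 and 39.8 ± 4.09.

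Slc38a1 and Slc38a2, sodium-coupled carriers of glutamine, alanine and other small neutral amino acids, both rose. Slc38a2 stood at 7424, 7268 and 6924 with vehicle and at 8105, 8496 and 8068 with T3, a rise of 1.14-fold (log2 0.19 ± 0.04 SE, adjusted p = 0.00436). Slc38a1 stood at 7961, 6990 and 7196 and at 10540, 11978 and 8323, with T3 replicate 3 again the lowest T3 library and near the highest vehicle library. Its rise was 1.38-fold (adjusted p = 0.00739), and 0.0600 with robust variances. Slc7a11, which exchanges cystine for glutamate and is a classic target of the amino acid and oxidant stress responses, stood at 703, 607 and 606 with vehicle. Its T3 libraries ran from 456 through 600 to 798, so they lay both below and above all vehicle libraries (interval -0.45 to 0.29). Slc1a4, a further carrier of neutral amino acids, was at 2732 ± 90.4 and 2579 ± 137 (adjusted p = 0.191), a difference called lower with either scaling, upper quartile (0.0413) or equal column totals (0.0219).

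No lysosomal or other inner-membrane gene was called by limma out of 5 tested, 0 by the authors' deposited table as well, and 1, Slc38a10, had an unadjusted p under 0.05. Of all tested genes 44.8% were called by limma and 38.6% by the authors' table, from the same libraries. The group is small, and Slc38a10 and Slc38a9 were called lower under both alternative scalings. Slc38a10 stood at 3888, 3898 and 3903 with vehicle and at 3646, 3733 and 3534 with T3. The T3 libraries were all lower by a small amount (log2 -0.10, adjusted p = 0.0518), and the fall was called with upper-quartile scaling (0.00778), equal column totals (0.00416) and the higher filter on low values (0.0470). Slc15a4, a lysosomal carrier of histidine and peptides, stood at 1038, 1033 and 1062 and at 1115, 978 and 1008. Its T3 libraries lay around those of the vehicle. Slc38a7, a lysosomal glutamine carrier, was at 952 ± 44.4 and 965 ± 49.5. Slc38a9, the lysosomal arginine sensor of the mTORC1 growth pathway, was at 449 ± 6.25 and 402 ± 32.0 (adjusted p = 0.109). It was called lower under both scalings (0.0397 and 0.0368) and when T3 replicate 3 was left out (0.0321). Slc36a4, an inner-membrane relative of Slc36a1, was scarce, at 13.3 ± 4.04 and 11.7 ± 4.04.

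Of 6 tested carriers of osmolytes, creatine and neurotransmitters, Slc6a8 and Slc6a9 rose and Slc6a4 fell. Here too 3 calls of 6 are close to the background, as 44.8% of all tested genes were called in either direction. Slc6a6, the taurine carrier, stood at 11055, 10568 and 10961 with vehicle and at 10394, 9601 and 11052 with T3. The groups overlapped (interval -0.19 to 0.05), and per kb of exon it was the second most abundant member with vehicle, at 1761 ± 41.9. Slc6a8, the creatine carrier (gene ID 102857, chromosome X, 73673133 to 73682502, plus strand, 13 exons), stood at 1393, 1681 and 1533 and at 3554, 3535 and 3049. Every T3 library was far above every vehicle library, and the rise was 2.20-fold (log2 1.14 ± 0.08 SE, adjusted p = 2.87e-06).

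Slc6a9, a glycine carrier, rose 1.23-fold from 763 ± 18.0 to 940 ± 37.9 (adjusted p = 0.00147), with no overlap between groups. Slc6a4, the serotonin carrier, by which the gut epithelium clears serotonin released by enteroendocrine cells, stood at 1087, 1164 and 1185 and at 921, 965 and 1082. T3 replicate 3 nearly reached vehicle replicate 1, and the fall of 1.16-fold (adjusted p = 0.0269) was lost without either of vehicle replicates 2 and 3 (0.0800 and 0.0915), without either of T3 replicates 1 and 2 (0.114 and 0.0791) and with no mean-variance trend (0.0671). Slc6a7, a proline carrier known from brain, stood at 240, 307 and 292 and at 229, 243 and 213 (adjusted p = 0.0572). It was called lower under both scalings (0.0305 and 0.0243), with robust variances (0.0496) and when vehicle replicate 1 was left out (0.0118). Slc1a3, a glutamate carrier known from glia, was at 654 ± 68.9 and 665 ± 70.5 (interval -0.19 to 0.24).

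Of the 5 tested genes with other or less well described roles, Slc7a15 rose and Slc7a4 fell, which is 40.0% called beside 44.8% of all tested genes. Slc7a15, a light chain described as preferring aromatic amino acids (gene ID 328059, chromosome 12, 8528483 to 8552018, minus strand, 7 exons), stood at 34, 41 and 60 with vehicle and at 186, 132 and 225 with T3. It was scarce in every library and its T3 libraries were the more variable, but the groups were far apart. The rise of 3.97-fold (log2 1.99 ± 0.24 SE, adjusted p = 0.000126) had the highest fold change among called members. Slc7a4 stood at 1679, 1726 and 1689 and at 1285, 1273 and 1257, with little spread within either group. It fell 1.33-fold (log2 -0.42 ± 0.04 SE, adjusted p = 3.24e-05). Slc38a6 stood at 156, 191 and 154 and at 161, 166 and 165, with T3 inside the vehicle range. Slc15a2, or PEPT2, a peptide carrier best known from kidney, was at 225 ± 37.8 and 179 ± 26.6 (adjusted p = 0.0961). It was called lower under both scalings (0.0487 and 0.0483) and when T3 replicate 3 was left out (0.0433). Slc38a11 was scarce too, at 12.7 ± 2.52 and 11.3 ± 4.04.

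**Figure D4:**
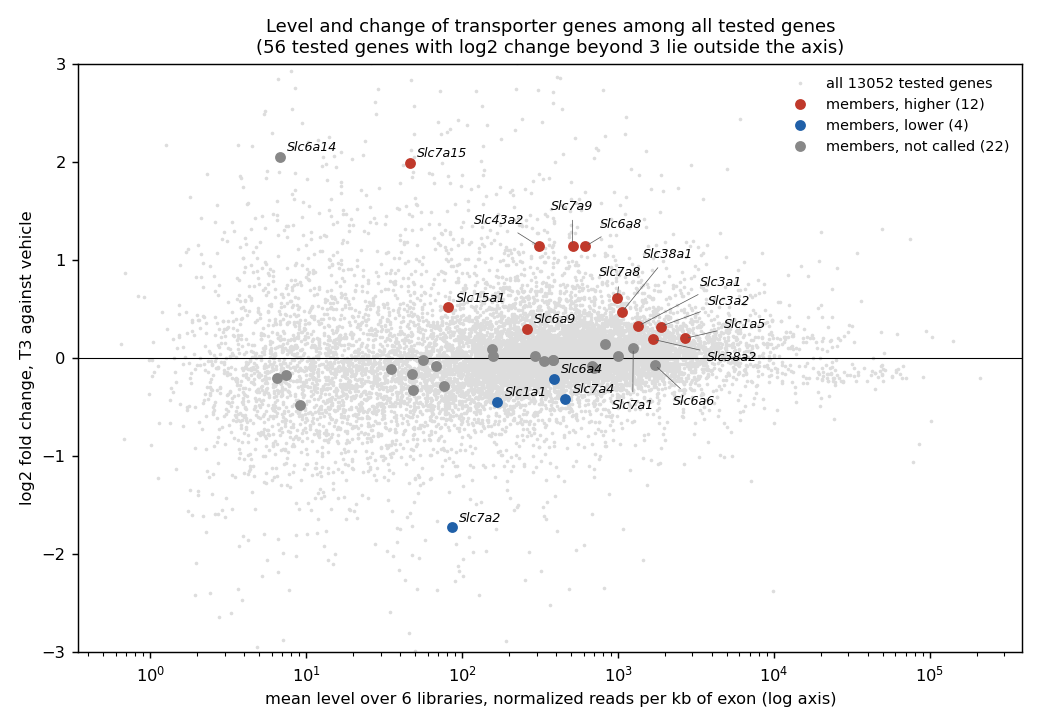
Log2 fold change of T3 against vehicle against the mean level over 6 libraries (normalized reads per kb of exon, log axis) for all 13052 tested genes (light grey) and the tested members (coloured by call). The called members Slc1a5, Slc38a2, Slc3a2 and Slc3a1, at 1344 to 2674, changed 1.14 to 1.25-fold, Slc38a1 (1052) 1.38-fold and Slc7a8 (986) 1.53-fold, and 56 tested genes with a log2 change beyond 3 lie outside the axis.

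Summed over each group, levels per kb of exon were higher with T3 for both surfaces of the enterocyte. The sum over all genes was higher too, at 13864400 to 14214500 with vehicle and 14223300 to 14482000 with T3. The 9 brush-border genes summed to 4425, 4915 and 4913 normalized reads per kb in vehicle replicates 1 to 3 and to 6027, 5992 and 5384 in the T3 replicates. The 6 basolateral genes summed to 3721, 3763 and 3958 and to 4946, 4780 and 5106. Supply genes went from 5729, 5410 and 5558 to 5960, 6367 and 5974, and those of osmolytes, creatine and neurotransmitters from 3015, 3034 and 3067 to 3433, 3334 and 3438. Lysosomal genes were at 1436, 1453 and 1471 against 1418, 1414 and 1367, and the last group at 660, 675 and 656 against 583, 547 and 593. By mean level over the 6 libraries, the most abundant genes in these sums were Slc1a5 and Slc3a1 on the brush border and Slc3a2 and Slc7a8 on the basolateral side. The less abundant Slc7a9 went from a mean of 319 to 704 per kb, beside 2491 to 2856 for Slc1a5 and 1188 to 1500 for Slc3a1. With columns set to equal totals, an alternative added after seeing the data, the supply genes overlapped (5588 to 5832 with vehicle, 5791 to 6203 with T3), and the other 5 groups stayed apart in the same direction. The sum over all genes was then lower with T3, at 14113100 to 14495700 with vehicle and 14037600 to 14107700 with T3. The sums are a description with no test.

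**Figure D5:**
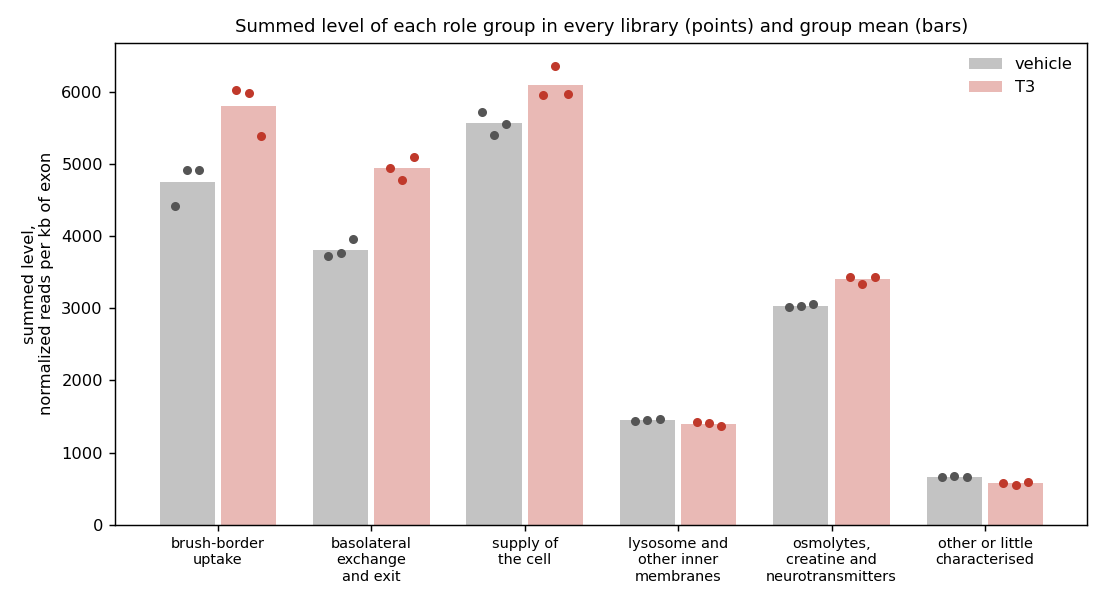
Summed level of the members of each role group (normalized reads per kb of exon) in every vehicle library (grey points) and T3 library (red points), with bars at the group means. T3 libraries lie above vehicle libraries for brush-border genes (5384 to 6027 against 4425 to 4915), basolateral genes, supply genes (which overlap with equal column totals) and osmolyte genes, and below them for the lysosomal and the last group.

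Genes that work with these carriers were taken from 3 further lists. Among transport partners 5 of 9 tested rose and 1 fell, where 24.0% of all tested genes rose and 20.8% fell. Slc9a3, the brush-border exchanger of sodium for protons that sustains proton-coupled peptide uptake, rose 5.80-fold from 316 ± 29.3 to 1849 ± 277 (adjusted p = 1.52e-07). Slc16a10, which lets aromatic amino acids and thyroid hormone leave the cell, rose 2.56-fold, from 1835 ± 21.6 to 4710 ± 187. Among the members known to carry both kinds of substrate, Slc7a8 was called higher and Slc7a5 was not (adjusted p = 0.841). Atp1b1, a subunit of the basolateral sodium pump, rose 1.79-fold, and Slc9a3r1, a brush-border scaffold, 1.74-fold. Slc6a20a, the carrier of proline and other imino acids that falls outside the naming rule, fell 2.35-fold from 165 ± 17.6 to 69.7 ± 4.51 (adjusted p = 4.50e-05).

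Of 14 peptidases that make the substrates of these carriers, 4 rose and 2 fell, which is 42.9% called and close to the 44.8% of all tested genes. Xpnpep1, a cytosolic enzyme that splits peptides before proline, rose 2.21-fold from 4308 ± 114 to 9556 ± 742. Enpep, Mep1b and Xpnpep2 rose 1.90-fold, 1.88-fold and 1.38-fold, and Mme and Mep1a each fell 1.31-fold. Anpep, the abundant aminopeptidase N of the brush border, was at 13432 ± 807 and 11989 ± 3083 and was not called. Of 10 genes of the amino acid response, which is driven by Atf4 and has Slc7a11, Slc7a5 and Slc38a2 among its known targets, 5 rose and 2 fell, against the same background. Chac1 rose 1.60-fold, Ddit3 1.44-fold (with overlapping groups), Asns 1.20-fold, Atf4 1.19-fold and Psat1 1.17-fold, while Phgdh fell 1.42-fold and Sesn2 1.21-fold. Of the 3 carriers named as targets, Slc38a2 alone was called. The other members were not sorted by whether Atf4 drives them, so this count says nothing of Atf4 targets as a set.

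The authors' deposited table, made with DESeq2, called the same number of tested members at an adjusted p under 0.05. Its 16 calls and the 16 made here shared 16 genes in the same direction, while it called 38.6% of all genes tested here. The libraries are the same in both, and the comparison is one of methods.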

How the data were processed

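Per the submitters' processing notes the authors used STAR, Subread and DESeq2, with no versions. The strand and other settings of counting are not given in the sources used here. Per the file headers, the build was mm10. The deposited sample columns hold a normalized score, reads scaled and rounded by the authors, as the deposited mean column matched their mean to within 0.833. Depth before scaling is unknown. Beside these, the authors deposited log2 fold changes and p-values. The second table, a subset, was not used.

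Genes with at least 10 in at least 3 libraries were tested with limma 3.58.1 (statmod 1.5.0 for robust variances) in R 4.3.3 on log2(value + 1), with a mean-variance trend, no replicate block and Benjamini-Hochberg adjustment; levels are mean ± SD, n = 3. Ratios used exact permutation. Results for some genes, 1 ratio included, are not reported here. The test was tested on simulated data. Alternatives were scaling, filters, pseudocounts, thresholds, variance models, a replicate block, the authors' comparison and leaving out each library.

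Library values are given for called members changed at least 1.5-fold, and for the 2 most abundant per kb in each role group; other tested members were given by count, range or value. Members, role groups and lists were chosen with earlier results of these data known.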

Additional observations from a re-analysis of the deposited data

How the results depend on the processing

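Of 16 called members, 11 kept their direction and call in all 16 alternative settings (Slc7a2, Slc7a4, Slc7a8, Slc7a9, Slc7a15, Slc43a2, Slc6a8, Slc6a9, Slc3a2, Slc38a2 and Slc1a1). The other 5 (Slc1a5, Slc3a1, Slc6a4, Slc15a1 and Slc38a1) kept their direction and lost the call in 1 to 7 settings. The count of falls moved from 4 to 9 with upper-quartile scaling and to 9 with equal column totals, where the median log2 fold change of all genes shifted by -0.056 and -0.066, and to 7 at an adjusted p under 0.1; the cause was not tested.

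Uncalled members near 0 changed sign, none past the threshold, and the cause was not tested. With upper-quartile scaling and equal column totals the log2 fold change was -0.037 and -0.047 for Slc38a7, -0.033 and -0.043 for Slc1a3, and -0.041 and -0.051 for Slc7a5. Without single libraries it ran from -0.060 to 0.0010 for Slc7a6, -0.19 to 0.17 for Slc6a19, -0.073 to 0.022 for Slc15a4, -0.023 to 0.046 for Slc38a7, -0.35 to 0.10 for Slc36a4, -0.049 to 0.11 for Slc1a3, -0.074 to 0.081 for Slc38a6, -0.025 to 0.069 for Slc7a5, -0.28 to 0.12 for Slc7a11 and -0.29 to 0.19 for Slc7a3.

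Same-numbered libraries did not deviate together (correlations of -0.070, 0.028 and -0.057 for replicates 1 to 3), so the numbers share no evident pairing. With a replicate block the same 16 members were called, and 5405 genes in place of 5851.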
